A study of Homo sapiens with 6 samples.

Results

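The Wnt genes described here are those coding for Wnt ligands, their secretion factors, their receptors and antagonists, and the proteins that control β-catenin. They were chosen by gene symbol, by a fixed pattern of family names, and not by any measured value, which gave 59 of the 20442 genes in the table. The cells were T24, an established line from a human bladder cancer, with 3 libraries in each group. The first group had been treated with an siRNA against KNSTRN, a gene of the mitotic spindle (si-KNSTRN), and the second with a control siRNA (si-NC), each for 24 h and after 24 h of attachment. Every library came from this 1 line, the sources used here do not give the siRNA sequences, and cells without siRNA were not analysed here.

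Wnt proteins are lipid-modified ligands that bind Frizzled (FZD) receptors and the coreceptors LRP5 and LRP6. Without a ligand, a destruction complex of AXIN, APC and kinases marks β-catenin for degradation. With a ligand, Dishevelled (DVL) proteins recruit AXIN to the membrane, β-catenin accumulates, and it joins TCF/LEF factors on DNA in place of TLE corepressors. Several genes that β-catenin induces in other cells act back on the pathway, among them AXIN2, ZNRF3, DKK1, LEF1 and TCF7. A further branch through FZD and DVL signals without β-catenin and is best known for cell movement and planar polarity.

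The β-catenin gene CTNNB1 and the coreceptor gene LRP6 fell in si-KNSTRN cells, while the antagonist gene DKK1, the ubiquitin ligase gene ZNRF3 and the TCF/LEF genes LEF1 and TCF7 rose. Of the 59 genes, 37 had enough reads to be tested. Calls rest on edgeR's quasi-likelihood test with Benjamini-Hochberg adjustment over all genes, at an adjusted p below 0.05. By that rule 25 of the 37 were called, 67.6%, beside 62.5% of all 12650 genes tested, so the share called is close to the background. By direction, 17 were higher, 45.9% beside 31.2% of all genes, and 8 were lower, 21.6% beside 31.3% of all genes. Of the 37, 13 were both called and at least 1.5-fold different, 35.1% beside 19.2% of all genes, with 7 higher and 6 lower. The 1.5-fold limit was set after the values had been seen. CPM values of the groups (counts scaled to library size and TMM factors) did not overlap for 29 of the 37, 78.4% beside 67.3% of all genes. The median log2 fold change, si-KNSTRN over si-NC, was 0.09 for the Wnt genes and -0.01 for all genes, and the median size of the change was 0.39 and 0.28. These shares are descriptions, with no test of the group as a whole. The counts of single families below, some of very few genes, stand against the same background. In cultures measured in bulk, fewer cells that express a gene and less RNA per cell cannot be told apart.

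Libraries held 17870543 to 19717513 reads with si-KNSTRN and 16386799 to 20596074 with si-NC, so 3 reads, the limit that a count of 0 allows, came to 0.148 to 0.187 CPM for counting error alone. KNSTRN had 13.6, 13.6 and 12.2 CPM in si-KNSTRN libraries and 38.3, 41.2 and 41.9 CPM in si-NC libraries (log2 fold change -1.62, SE 0.07, adjusted p = 1.7e-11 by edgeR). Summed epithelial markers ran from 3077 to 3245 CPM with si-KNSTRN and from 2834 to 3001 CPM with si-NC, carried by KRT7, KRT8 and KRT18, while the epithelial cadherin gene CDH1 had no read and EPCAM averaged 0.695 and 0.723 CPM. Of 10 urothelial markers, 6 were tested, with sums of 57.2 to 65.3 CPM and 42.4 to 47.4 CPM, most of it PPARG (44.8 and 28.7 CPM), while UPK1A fell (0.175 and 0.832 CPM) and UPK3A was at 0. Of 10 mesenchymal markers, 4 were tested and all 4 fell, beside 31.3% of all genes called lower. The 10 markers summed to 3720 to 4145 CPM and 6369 to 6917 CPM, most of it vimentin (VIM), and COL1A2 was at 0. Of the 4 that fell, PDGFRB was low (0.550 and 2.03 CPM with si-KNSTRN and si-NC), and CDH2 had a log2 fold change of -0.17. Endothelial markers summed to at most 2.73 and 1.43 CPM. Leukocyte markers summed to 45.9 to 48.4 CPM and 30.9 to 36.3 CPM, almost wholly CD68, with CD3D, CD3E and MS4A1 at 0. The part of these markers in the Wnt results was not tested.

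**Figure D1:**
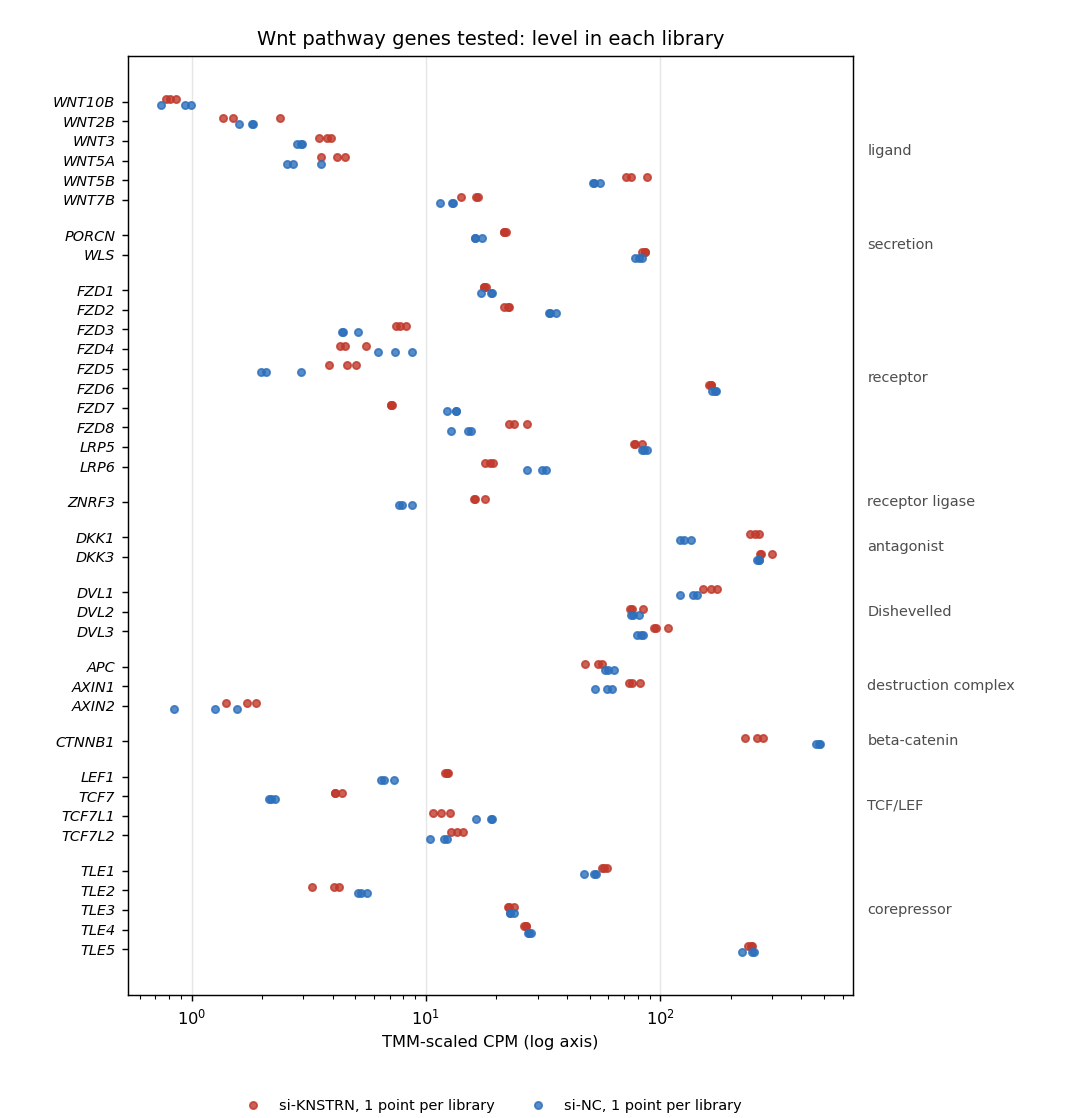
TMM-scaled CPM (log axis) of the 37 Wnt genes tested, grouped by role, with 1 point per library, si-KNSTRN in red above si-NC in blue. CTNNB1 lies at 230.3 to 276 CPM with si-KNSTRN, below every si-NC library, and DKK1, ZNRF3, LEF1 and TCF7 lie above every si-NC library.

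Of 19 WNT ligand genes, 6 were tested and 4 of these rose, with none lower, beside 31.2% of all genes higher and 31.3% lower. WNT5B, a ligand best known for signalling without β-catenin (chromosome 12, 1617056 to 1647212, GRCh38), had 71.3, 75.0 and 87.8 CPM in si-KNSTRN libraries and 55.5, 51.6 and 52.3 CPM in si-NC libraries. All si-KNSTRN libraries lay above all si-NC libraries (log2 fold change 0.55, SE 0.07, adjusted p = 2.0e-06 by edgeR). Per kilobase of transcript it made up 83.1% ± 1.06 of the summed WNT level with si-KNSTRN and 80.2% ± 1.71 with si-NC (SD, n = 3 each), so it was the main ligand transcript in both groups. WNT7B, which signals through β-catenin in many tissues, followed with 9.89% ± 0.592 and 11.1% ± 0.998. It had 14.2, 16.4 and 16.7 CPM with si-KNSTRN and 11.4, 13.0 and 12.9 CPM with si-NC, again without overlap (log2 fold change 0.34, SE 0.09, adjusted p = 0.0037). The summed WNT level was 40.7 ± 4.05 CPM per kb with si-KNSTRN and 28.8 ± 0.652 CPM per kb with si-NC, with no test of the sum.

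The calls of 2 low ligands depended on single libraries. WNT5A, a ligand of cell movement, had 4.50, 4.16 and 3.55 CPM with si-KNSTRN and 2.71, 2.55 and 3.57 CPM with si-NC, and the groups overlapped (log2 fold change 0.47, SE 0.17, adjusted p = 0.022 by edgeR). The adjusted p was 0.083 and 0.053 without si-KNSTRN library 1 or 2, 0.086 without si-NC library 1 or 2 and 0.059 with DESeq2. WNT3, a ligand of the β-catenin branch, had 3.94, 3.49 and 3.77 CPM with si-KNSTRN and 2.81, 2.92 and 2.97 CPM with si-NC (log2 fold change 0.37, SE 0.15, adjusted p = 0.039). Its adjusted p was 0.11 and 0.075 without si-KNSTRN library 1 or 3, and 0.10, 0.070 and 0.056 without si-NC library 1, 2 or 3. It was 0.053 with the replicate block, 0.065 with upper-quartile factors and 0.14 with DESeq2. WNT2B and WNT10B, at 1.75 ± 0.551 and 0.815 ± 0.0432 CPM with si-KNSTRN and 1.74 ± 0.127 and 0.887 ± 0.131 CPM with si-NC (SD, n = 3 each), were not called. WNT2B shares 21.2% of its exon bases with ST7L on the opposite strand, and the strand setting of the counts is not given.

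The other 13 WNT genes were not tested. WNT1, WNT3A, WNT4 and WNT9B had no read in any library. WNT2, WNT6, WNT7A, WNT8A, WNT10A and WNT11 had 1 to 3 reads over all 6 libraries, and WNT16 had 6. WNT9A and WNT8B had reads in all 6 libraries, 26 and 37 in total, which was under the limit for testing. Expression of these genes was not detectable or not measurable at this depth.

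Both genes on which nearly all Wnt ligands depend for release were expressed. PORCN, the enzyme that attaches the lipid to Wnt proteins, had 21.5, 21.9 and 21.6 CPM with si-KNSTRN and 16.2, 17.4 and 16.2 CPM with si-NC, with no overlap (log2 fold change 0.39, SE 0.07, adjusted p = 1.5e-04 by edgeR). WLS, which carries lipid-bearing Wnt proteins to the cell surface, was at 85.4 ± 1.30 CPM and 80.7 ± 2.69 CPM (SD, n = 3 each) and was not called (log2 fold change 0.08, SE 0.05, adjusted p = 0.14). Scaled by library size without TMM factors, WLS was called higher (adjusted p = 0.045).

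The Frizzled genes moved in opposite directions. Of 10 FZD genes, 8 were tested, of which FZD5, FZD3 and FZD8 rose, FZD7, FZD4 and FZD2 fell, and FZD6 and FZD1 were not called. FZD7, a receptor of the β-catenin branch (chromosome 2, 202033855 to 202038441, GRCh38), had 7.18, 7.09 and 7.11 CPM with si-KNSTRN and 13.4, 13.4 and 12.3 CPM with si-NC (log2 fold change -0.87, SE 0.09, adjusted p = 5.3e-07 by edgeR). FZD2 had 22.7, 21.6 and 22.5 CPM with si-KNSTRN and 36.1, 33.8 and 33.5 CPM with si-NC (log2 fold change -0.63, SE 0.06, adjusted p = 3.4e-07). In both genes each si-KNSTRN library lay well below each si-NC library.

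FZD4, which also serves as the receptor for norrin, had 4.50, 5.54 and 4.31 CPM with si-KNSTRN and 7.39, 6.22 and 8.68 CPM with si-NC (log2 fold change -0.64, SE 0.14, adjusted p = 8.5e-04 by edgeR). Its groups did not overlap, though si-KNSTRN library 2 and si-NC library 2 were close. FZD4 shares 19.0% of its exon bases with PRSS23 on the other strand, which had 89.9, 86.9 and 88.0 CPM with si-KNSTRN and 134.9, 131 and 133 CPM with si-NC. The part of PRSS23 reads in the FZD4 values was not tested.

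Among the receptors that rose, FZD8 had 23.8, 22.6 and 27.1 CPM with si-KNSTRN and 15.6, 15.2 and 12.8 CPM with si-NC (log2 fold change 0.75, SE 0.09, adjusted p = 1.8e-06 by edgeR). FZD5, the closest relative of FZD8 in sequence and a receptor of the β-catenin branch, had 3.84, 4.60 and 5.01 CPM with si-KNSTRN and 2.07, 2.92 and 1.98 CPM with si-NC (log2 fold change 0.96, SE 0.18, adjusted p = 1.8e-04). FZD3, known from axon guidance in mice, had 7.43, 8.26 and 7.75 CPM with si-KNSTRN and 4.38, 4.42 and 5.11 CPM with si-NC (log2 fold change 0.75, SE 0.12, adjusted p = 3.4e-05). The groups were separate for all 3 genes.

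FZD6, known from planar polarity, was the main Frizzled transcript in both groups. Its level was 43.0 ± 0.487 CPM per kb with si-KNSTRN and 45.05 ± 0.867 CPM per kb with si-NC, or 65.3% ± 0.985 and 62.0% ± 0.999 of the summed Frizzled level (SD, n = 3 each). It was not called (log2 fold change -0.07, SE 0.04, adjusted p = 0.19), though with upper-quartile factors it was (adjusted p = 0.036). FZD2 took 15.99% ± 0.346 with si-KNSTRN and 22.4% ± 0.465 with si-NC, and FZD8 took 9.21% ± 0.844 and 4.95% ± 0.467. The sum over Frizzled genes was 65.9 ± 0.324 CPM per kb with si-KNSTRN and 72.7 ± 1.53 CPM per kb with si-NC. With 3 libraries in each group an exact permutation test of such a sum could not go below p = 0.10, and none was run. FZD10 had no read, and FZD9 had 1 read in all.

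Of the coreceptors, LRP6 fell and LRP5 was not called. LRP6 (chromosome 12, 12116025 to 12267044, GRCh38) had 19.3, 17.9 and 18.7 CPM with si-KNSTRN and 27.0, 31.4 and 32.4 CPM with si-NC (log2 fold change -0.70, SE 0.08, adjusted p = 8.2e-07 by edgeR). LRP5 had 77.8, 77.0 and 83.7 CPM with si-KNSTRN and 87.4, 85.7 and 83.8 CPM with si-NC (log2 fold change -0.11, SE 0.05, adjusted p = 0.063). LRP5 was called lower without si-KNSTRN library 3 (adjusted p = 0.024), without si-NC library 3 (0.043) and with upper-quartile factors (0.011). Per kilobase, LRP6 made up 10.8% ± 0.516 of the pair with si-KNSTRN and 15.4% ± 1.502 with si-NC, so LRP5 was the more abundant coreceptor transcript in both.

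**Figure D2:**
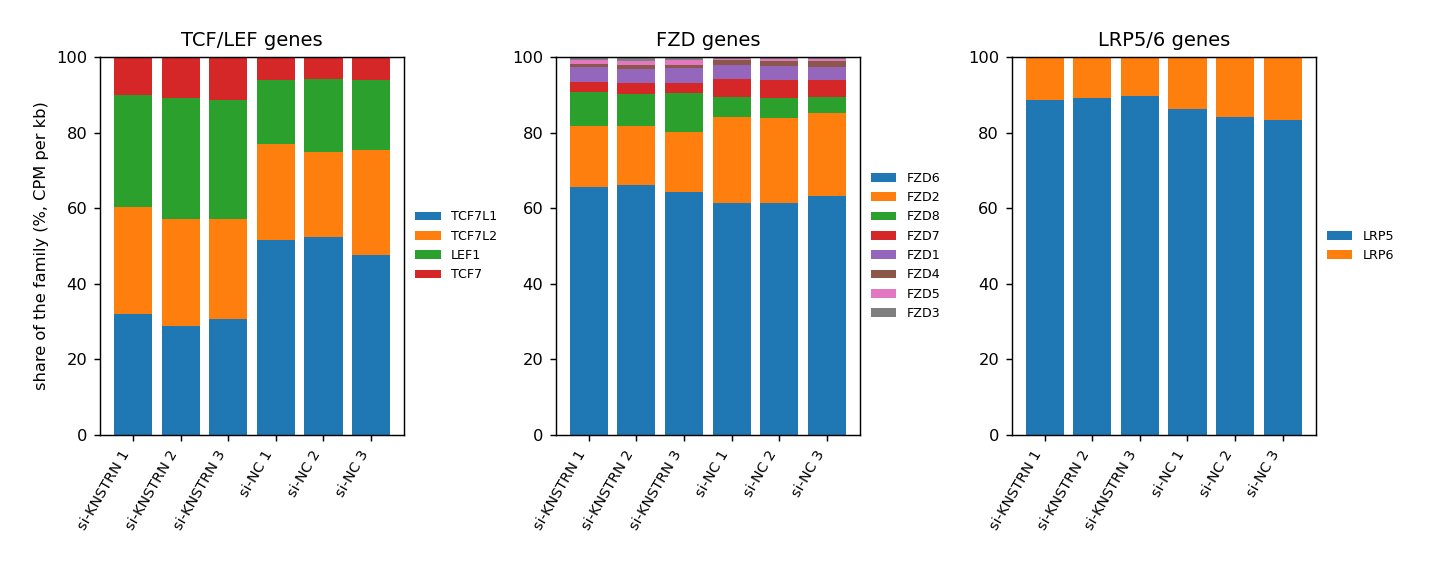
Share of each gene (%, from CPM per kb of transcript) in the summed level of TCF/LEF, FZD and LRP5/6 genes, 1 bar per library, si-KNSTRN libraries left of si-NC libraries. TCF7L1 takes 30.4% on average with si-KNSTRN and 50.6% with si-NC, while FZD6 and LRP5 hold the largest share of their families in all 6 libraries.

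ZNRF3, a ubiquitin ligase that removes Frizzled receptors from the cell surface, rose about as much as DKK1 and FZD5, the Wnt genes nearest to it in log2 fold change. It (chromosome 22, 28883572 to 29057488, GRCh38) had 16.03, 16.1 and 17.9 CPM with si-KNSTRN and 7.88, 7.65 and 8.74 CPM with si-NC (log2 fold change 1.04, SE 0.09, adjusted p = 5.8e-08 by edgeR). Each si-KNSTRN library was far above each si-NC library. Its relative RNF43 had 3 reads over 6 libraries and was not tested. RNF43 shares 57.6% of its exon bases with AC004687.2, a second gene model on the same strand, and 20.3% with TSPOAP1-AS1 on the opposite strand. How reads in shared bases were counted is not given, so its low count is uncertain.

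DKK1, a secreted protein that binds LRP5 and LRP6 and blocks them as coreceptors, rose nearly as much and was far more abundant per kilobase, with ZNRF3 at 5.80 ± 0.372 and 2.81 ± 0.199 CPM per kb with si-KNSTRN and si-NC (SD, n = 3 each). It (chromosome 10, 52314281 to 52317657, GRCh38) had 242, 255 and 264 CPM with si-KNSTRN and 121, 127 and 136 CPM with si-NC (log2 fold change 0.99, SE 0.05, adjusted p = 1.4e-10 by edgeR). The groups were far apart. DKK1 stood at 142 ± 6.13 CPM per kb with si-KNSTRN and 71.5 ± 4.14 CPM per kb with si-NC (SD, n = 3 each). It shares 9.61% of its exon bases with PRKG1-AS1 on the opposite strand, a gene without counts here. The part of PRKG1-AS1 reads in the DKK1 values was not tested. DKK3, a divergent member that is not known to act through LRP6, was at 105 ± 6.96 and 99.1 ± 1.07 CPM per kb and was not called (log2 fold change 0.08, SE 0.05, adjusted p = 0.15). With si-NC, DKK1 took 41.9% of the summed DKK level per kilobase of transcript, but 52.7% with the union of all exons. Which DKK gene led with si-NC therefore depends on the length taken. DKK2, DKK4, SFRP1, SFRP2 and SFRP4 had no read, and SFRP5 had 4 reads in all, so DKK1 and DKK3 were the antagonists of these families that were measured.

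The promoter of DKK1 is shown because DKK1 is the strongly changed antagonist and a target of TCF/LEF factors in other cells. In the RefSeq promoter (build GRCh38.p14, chr10:52314031-52314330, plus strand, 250 bases before to 50 after the start), capitals mark the letters TCAAAG, the core read by TCF/LEF factors, and their reverse complement CTTTGA, searched on both strands.
DKK1: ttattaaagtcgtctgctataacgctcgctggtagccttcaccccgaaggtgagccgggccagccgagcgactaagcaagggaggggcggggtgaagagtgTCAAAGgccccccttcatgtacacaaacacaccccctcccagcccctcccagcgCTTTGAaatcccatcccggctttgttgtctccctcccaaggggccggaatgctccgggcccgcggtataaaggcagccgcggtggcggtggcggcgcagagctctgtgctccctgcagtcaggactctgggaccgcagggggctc
The matches begin 149 and 95 bases before the start. Of 35116 promoters of this length, 12.9% held the letters at least once and 1.29% held them 2 or more times. Of the 44 Wnt genes with a promoter entry, 4 held them (9.09%), namely DKK1 and PORCN, which rose, and TLE4 and TLE5, which were not called. Some genes have several promoters, and by promoter 5 of 59 held the letters (8.47%). LEF1 and TCF7 rose and have no match in these windows. No promoter entry was at hand for ZNRF3, AXIN2, LRP6, FZD2 and FZD7, among others.

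Dishevelled genes code for proteins that pass the signal on from the receptors. Of these, 2 of 3 rose by small amounts, beside 31.2% of all genes. DVL1 had 152, 165 and 175 CPM with si-KNSTRN and 137, 143 and 121 CPM with si-NC (log2 fold change 0.29, SE 0.06, adjusted p = 5.7e-04 by edgeR). DVL3 had 93.6, 96.0 and 108 CPM with si-KNSTRN and 84.6, 83.0 and 79.9 CPM with si-NC (log2 fold change 0.26, SE 0.05, adjusted p = 5.1e-04). Both rose without overlap of the groups. DVL2 was at 78.2 ± 5.36 and 77.5 ± 2.99 CPM (SD, n = 3 each) and was not called.

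The scaffolds of the destruction complex moved apart. AXIN1, its limiting scaffold in many cells, had 73.6, 75.5 and 82.0 CPM with si-KNSTRN and 59.4, 62.1 and 52.4 CPM with si-NC, with no overlap (log2 fold change 0.41, SE 0.06, adjusted p = 2.1e-05 by edgeR). APC, the large scaffold lost in many colon cancers, had 56.4, 54.1 and 48.0 CPM with si-KNSTRN and 59.7, 58.0 and 63.6 CPM with si-NC (log2 fold change -0.19, SE 0.06, adjusted p = 0.011). The APC call was lost without si-KNSTRN library 3 (adjusted p = 0.060) or si-NC library 3 (0.058). AXIN2, a feedback inhibitor and widely used target of β-catenin, was low at 1.72, 1.88 and 1.40 CPM with si-KNSTRN and 0.838, 1.56 and 1.26 CPM with si-NC. The groups overlapped and it was not called (log2 fold change 0.47, SE 0.25, adjusted p = 0.10), except without si-NC library 2 (log2 fold change 0.67, adjusted p = 0.046). It also shares 25.2% of its exon bases with a second gene model in GENCODE, so its value is uncertain.

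CTNNB1, the gene of β-catenin, fell by about as much as FZD7 on the log2 scale. It (chromosome 3, 41199505 to 41240443, GRCh38) was covered by 5453, 4666 and 4278 reads with si-KNSTRN and by 9617, 7398 and 8737 reads with si-NC, or 276, 259 and 230.3 CPM and 474, 460.2 and 480 CPM. The groups were far apart (log2 fold change -0.89, SE 0.06, adjusted p = 1.6e-09 by edgeR), a level 0.541 times that of si-NC cells. Per kilobase of the transcript used, CTNNB1 stood at 53.8 ± 4.84 CPM per kb with si-KNSTRN and 99.5 ± 2.15 CPM per kb with si-NC (SD, n = 3 each). Its place among the other genes depends on the length taken and is not given.

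The TCF/LEF genes, whose products carry β-catenin to DNA, all passed the test, with 3 higher and 1 lower. Of all genes tested, 31.2% were higher and 31.3% lower. LEF1 (chromosome 4, 108047548 to 108168932, GRCh38) had 12.1, 12.4 and 12.3 CPM with si-KNSTRN and 6.40, 7.28 and 6.59 CPM with si-NC (log2 fold change 0.86, SE 0.10, adjusted p = 8.3e-07 by edgeR). TCF7, the gene of TCF-1, had 4.10, 4.10 and 4.36 CPM with si-KNSTRN and 2.27, 2.18 and 2.14 CPM with si-NC (log2 fold change 0.93, SE 0.15, adjusted p = 5.0e-05). The libraries of each group lay close together and the groups were separate in both genes. LEF1 shares 5.2% of its exon bases with LEF1-AS1 on the other strand, a gene without counts here. The part of LEF1-AS1 reads in the LEF1 values was not tested. TCF7 shares 2.09% of its exon bases with SKP1 on the other strand, which was at 224 ± 3.65 CPM with si-KNSTRN and 241 ± 8.202 CPM with si-NC, and the part of SKP1 reads in the TCF7 values was not tested.

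TCF7L1, the gene of TCF-3, which acts mainly as a repressor in mouse stem cells, had 12.6, 10.7 and 11.6 CPM with si-KNSTRN and 18.9, 19.1 and 16.4 CPM with si-NC (log2 fold change -0.64, SE 0.09, adjusted p = 1.2e-05 by edgeR). TCF7L2, the gene of TCF-4, had 14.4, 13.6 and 12.8 CPM with si-KNSTRN and 11.97, 10.5 and 12.3 CPM with si-NC (log2 fold change 0.23, SE 0.09, adjusted p = 0.034). The TCF7L2 call was lost without si-KNSTRN library 1 or 2 (adjusted p = 0.12 and 0.068), without si-NC library 2 (0.15), with upper-quartile factors (0.081) and with DESeq2 (0.079). The make-up of the family therefore differed between the groups while its summed level was 12.9 ± 0.407 CPM per kb with si-KNSTRN and 12.1 ± 0.407 CPM per kb with si-NC. TCF7L1 took 30.4% ± 1.64 of that sum with si-KNSTRN and 50.6% ± 2.54 with si-NC, LEF1 took 31.1% ± 1.34 and 18.2% ± 1.24, and TCF7 took 10.7% ± 0.586 and 5.97% ± 0.126 (SD, n = 3 each). TCF7L2 took 27.8% ± 1.15 and 25.2% ± 2.69. Which gene led with si-KNSTRN depends on the length taken: with the union of all exons TCF7L1 took 35.8% ± 1.79 and 56.2% ± 2.55, and LEF1 31.1% ± 1.48 and 17.3% ± 1.17.

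TLE genes code for corepressors that hold TCF/LEF targets silent, and of 5 tested 1 rose, 1 fell and 3 were not called. Of all genes tested, 62.5% were called either way. TLE5, a short form that lacks the repressor domain, was the main transcript of the family at 242 ± 5.00 and 240.0 ± 15.2 CPM (SD, n = 3 each) and was not called. TLE1 rose slightly, with 59.0, 56.7 and 57.8 CPM with si-KNSTRN and 52.4, 53.2 and 47.3 CPM with si-NC (log2 fold change 0.18, SE 0.06, adjusted p = 0.0080 by edgeR). TLE2 fell, with 4.25, 3.27 and 4.04 CPM with si-KNSTRN and 5.27, 5.598 and 5.11 CPM with si-NC (log2 fold change -0.46, SE 0.14, adjusted p = 0.0073). TLE3 and TLE4 had log2 fold changes of -0.01 and -0.05 and were not called.

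**Figure D3:**
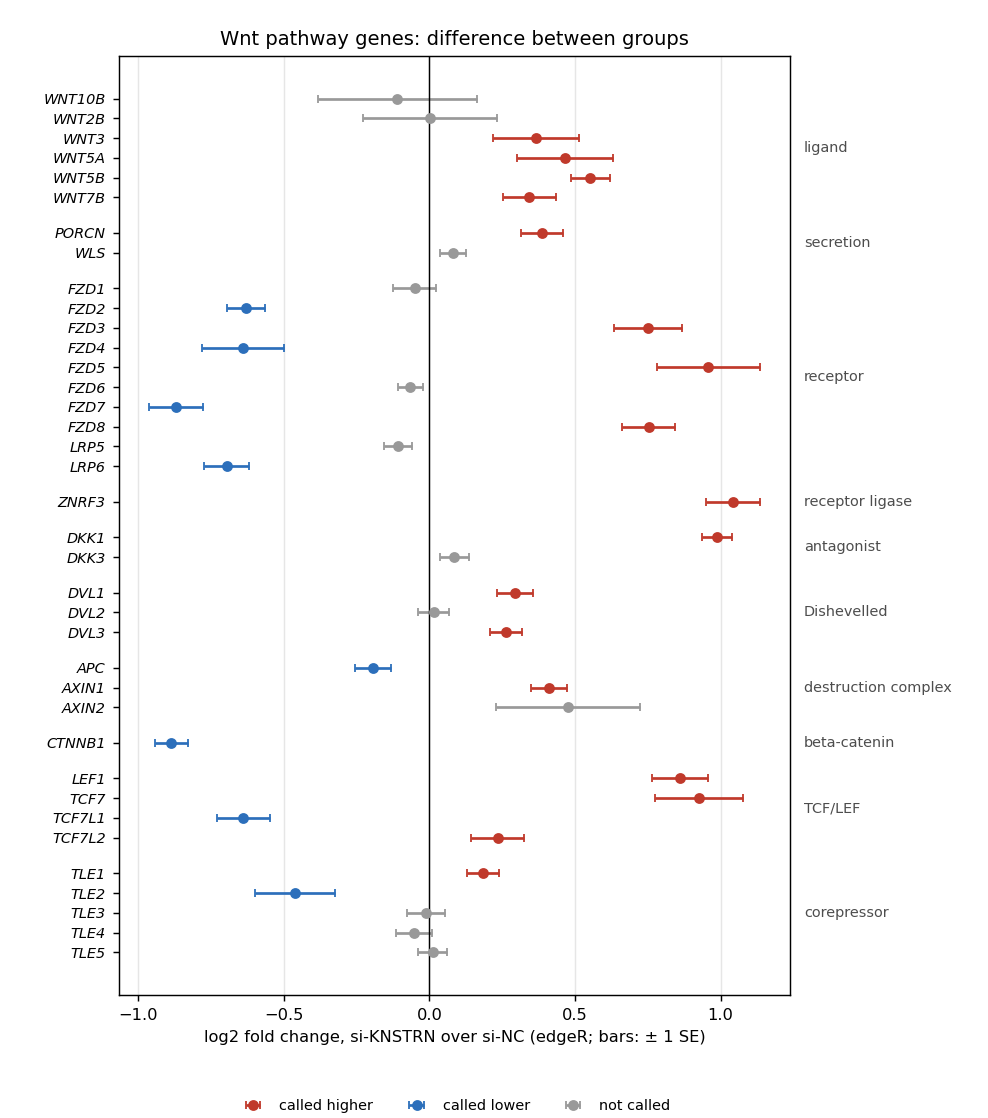
Log2 fold change, si-KNSTRN over si-NC, of the 37 Wnt genes tested, grouped by role, with bars of 1 SE and colours for the call by edgeR at an adjusted p under 0.05. ZNRF3 (1.04) and DKK1 (0.99) lie farthest right and CTNNB1 (-0.89) and FZD7 (-0.87) farthest left, though each pair differs by less than the larger SE.

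Some of the genes that fell share a short sequence in the 3′ UTR. The letters TGAGTA were taken from an earlier search of these same libraries, where they were met more often among genes called lower, so their presence here is no independent evidence. In 1 GENCODE transcript per gene, with 3′ UTRs of at least 50 bases, 4 of the 8 Wnt genes called lower held the letters, beside 2 of 17 genes that rose and 0 of 12 that did not pass the test. Over all genes tested the shares were 35.7% of 3820 called lower, 19.3% of 3834 called higher and 27.1% of 4519 not called. The 4 lower genes were CTNNB1, LRP6, FZD4 and TCF7L1, and the 2 higher ones WNT3 and FZD3, which had 5 matches in a 3′ UTR of 11256 bases. The 3′ UTR had 5463 bases in FZD4, 5101 in LRP6, 926 in TCF7L1, 546 in CTNNB1 and 2124 in WNT3. Among the Wnt genes its median length was 1499 bases for those called lower, 1213 for those called higher and 1109 for those not called. The part of length in these counts was not tested. WNT7A, WNT10A, DKK2, SFRP1 and SFRP2, which were not tested, also hold the letters. The sites below are given 5′ to 3′ on the transcript, with GRCh38 positions and the 6 letters in capitals. They are shown for the tested genes other than FZD3 that hold the letters.
CTNNB1, chr3:41239594-41239623, plus strand: ttaatactcaaaTGAGTAacatttgctgtt
LRP6, chr12:12120806-12120835, minus strand: cagtgaagcaacTGAGTAcaaaggaaacag
LRP6, chr12:12119952-12119981, minus strand: ttgtttgttttcTGAGTAaaacatttaaat
FZD4, chr11:86949109-86949138, minus strand: ctgtgcccagtcTGAGTAccttggctagac
TCF7L1, chr2:85309488-85309517, plus strand: cacatgactcatTGAGTAgtaatgattcag
WNT3, chr17:46763479-46763508, minus strand: ctggggccaatgTGAGTAaacacagacaca
FZD7 and FZD2, which fell as clearly as LRP6, hold no match in the transcripts used. The part of these letters in the falls was not tested.

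Other genes of the pathway, in 10 lists drawn up from textbook knowledge, gave 131 tested genes outside the family pattern, of which 40 rose (30.5%, beside 31.2% of all genes), 44 fell (33.6%, beside 31.3%) and 47 were not called. The 64.1% called either way is close to the 62.5% of all genes, and the counts of the single lists below, some of very few genes, stand against the same background. Their median log2 fold change was 0.01. In the list of receptors outside the Frizzled family, 5 of 7 rose and 1 fell, or 4 and 1 of 6 without MCC, an intracellular protein that is no Wnt receptor. ROR1, a receptor for WNT5A, was at 5.12 ± 0.478 CPM with si-KNSTRN and 2.33 ± 0.3002 CPM with si-NC (SD, n = 3 each; log2 fold change 1.14, SE 0.15, adjusted p = 7.0e-06 by edgeR). The receptor gene RYK rose by 0.20 and MCC by 0.60 on the log2 scale, and PTK7, a planar polarity coreceptor, fell by 0.41. R-spondins, which protect Frizzled receptors from ZNRF3, and their receptors were almost unmeasured, with LGR4 the single gene of 7 tested (27.7 ± 0.784 and 30.5 ± 2.12 CPM). LGR4 was not called (adjusted p = 0.088), but it was without si-NC library 1 (0.049) and with upper-quartile factors (0.029).

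Partners of LRP6 and of DKK1 were among the falls. MESD, the chaperone that LRP5 and LRP6 need to fold, was at 43.2 ± 4.03 CPM with si-KNSTRN and 71.0 ± 3.45 CPM with si-NC (SD, n = 3 each; log2 fold change -0.71, SE 0.06, adjusted p = 6.3e-08 by edgeR). KREMEN2, a receptor that takes DKK1-bound LRP6 into the cell, was at 1.38 ± 0.314 and 4.21 ± 0.129 CPM (log2 fold change -1.60, SE 0.18, adjusted p = 1.1e-06), and KREMEN1 and TRABD2A were not called (log2 fold changes 0.04 and -0.03). ATP6AP2, a proton pump subunit linked to LRP6 signalling, fell by 1.22, the cargo receptor gene TMED5 by 0.57 and the antagonist gene IGFBP4 by 0.57 on the log2 scale, while UBE2N rose by 0.34. Of the 10 secretion and receptor turnover genes tested, 2 rose and 5 fell (70% called), and of 4 antagonists tested, none rose and 2 fell (50% called). Of all genes tested, 62.5% were called either way and 31.3% lower.

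Destruction complex genes outside the family pattern had 3 higher, 7 lower and 10 not called of 20. GSK3B and GSK3A, the kinases that mark β-catenin, rose by log2 fold changes of 0.58 and 0.45. GSK3B was at 48.6 ± 0.768 CPM with si-KNSTRN and 32.5 ± 1.00 CPM with si-NC (SD, n = 3 each; adjusted p = 2.2e-07 by edgeR). TNKS2, a tankyrase that marks axin for degradation, fell by 0.80, and APC2 fell by 0.89. Of 8 genes in the list of Dishevelled partners and feedback inhibitors, 3 fell and none rose (37.5% called, beside 62.5% of all genes). CXXC5, which binds Dishevelled, fell by 0.96 and DIXDC1 by 0.32, a call lost without si-NC library 1 or 2 (adjusted p = 0.059 and 0.062). The kinase gene TNIK had a log2 fold change of -0.26 (adjusted p = 0.032), with the call lost without si-KNSTRN library 1 or 3 (0.079 and 0.064), without si-NC library 3 (0.17), with library size alone (0.064) and with DESeq2 (0.084). CCDC88C was not called (log2 fold change 0.18, adjusted p = 0.086), but it was without si-NC library 2 (0.033) and with library size alone (0.043).

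Of 23 planar polarity and calcium genes, 7 rose and 9 fell. NLK, a kinase that acts on TCF/LEF factors, was at 50.9 ± 3.08 CPM with si-KNSTRN and 22.6 ± 0.946 CPM with si-NC (SD, n = 3 each; log2 fold change 1.17, SE 0.07, adjusted p = 3.7e-10 by edgeR). ROCK1, CAMK2G and CELSR2 fell by 0.80, 0.74 and 0.44 on the log2 scale. Nuclear cofactors had 8 higher and 6 lower of 22, with RUVBL1 and HIPK2 higher (0.51 and 0.46) and PYGO2 lower (-0.51). Among β-catenin partners at cell junctions, 50% were called, beside 62.5% of all genes, and none of 6 rose and 3 fell. These were CTNNAL1, JUP and CDH2, by 0.57, 0.47 and 0.17, while CTNNA1, which ties β-catenin to actin, was at 619 ± 5.92 and 641 ± 7.45 CPM and was not called.

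Genes described as β-catenin targets in other cells went both ways, since 15 of 30 rose (50%, beside 31.2% of all genes), 8 fell (26.7%, beside 31.3%) and 7 did not pass the test, and their median log2 fold change was 0.29. PLAUR and TBX3 rose by log2 fold changes of 0.90 and 1.03, and YAP1 and SOX9 fell by 1.01 and 0.91. PLAUR, the urokinase receptor, was at 206 ± 4.42 CPM with si-KNSTRN and 110.3 ± 3.14 CPM with si-NC, and SOX9 at 41.5 ± 1.91 and 77.9 ± 2.09 CPM (SD, n = 3 each). Named after their values were seen, CCND1 was higher with si-KNSTRN, at 412 ± 38.2 and 232 ± 4.31 CPM (adjusted p = 4.1e-09 by edgeR), and MYC, at 78.1 ± 6.24 and 79.5 ± 2.22 CPM, was not called (adjusted p = 0.69). Many of these genes also answer to other pathways, and what β-catenin contributed to them was not tested.

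**Figure D4:**
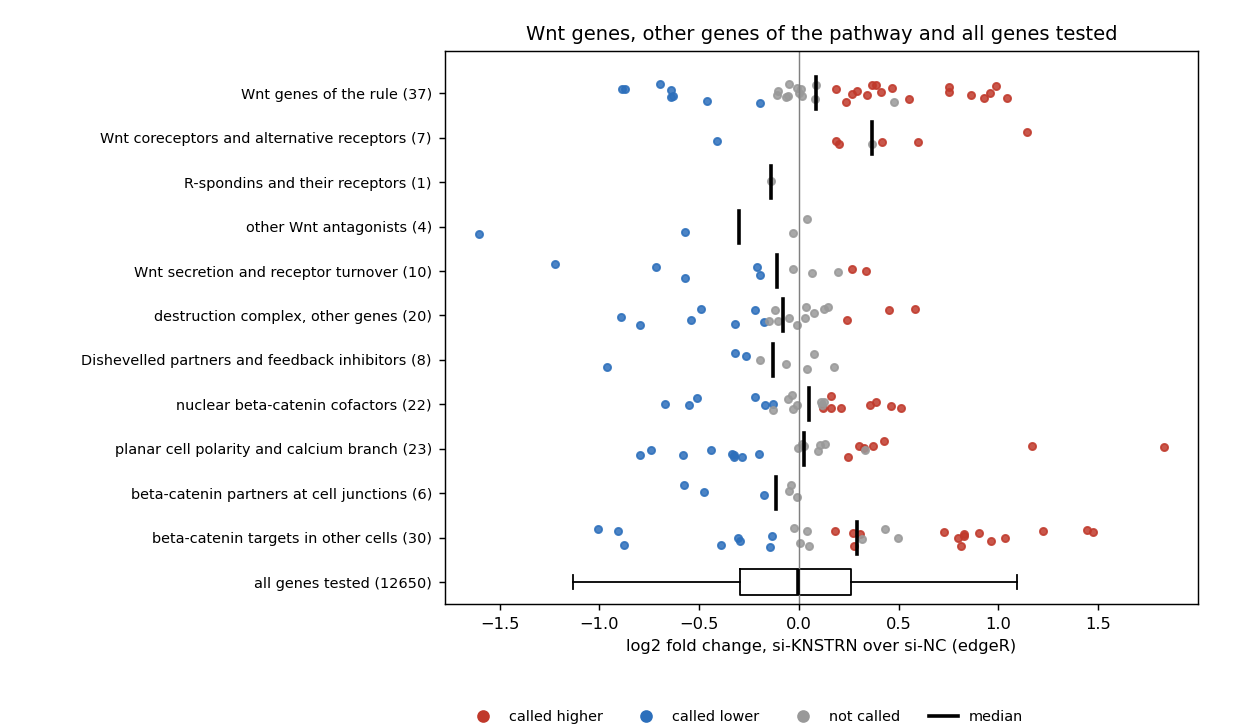
Log2 fold change, si-KNSTRN over si-NC, of the 37 Wnt genes (top), of the tested genes in 10 pathway lists and of all 12650 genes tested (box with quartiles, whiskers at 1.5 times the quartile range). Points are coloured by call and black bars are medians, 0.09 for the Wnt genes, 0.29 for the β-catenin targets and -0.01 for all genes.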

How the data were processed

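The authors deposited raw counts of reads for each gene and library. The submitters' processing notes name HISAT2 2.0.1, featureCounts and the build GRCh38, with fastp 0.20.0 and FastQC 0.11.5, and the sources used here give no settings, strand or annotation release. Groups came from the sample titles, with 3 libraries each, called biological replicates by the submitters. No pair of replicates agreed within sampling noise (chi-square per degree of freedom 2.16 to 10.3), and reads carry no stated molecular identifiers. The largest values were those of si-KNSTRN library 3, 10.3 with library 1 and 6.98 with library 2, while si-KNSTRN libraries 1 and 2 gave 2.6. Without si-KNSTRN library 3, 16 Wnt genes were called higher and 8 lower.

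Counts were tested with edgeR 4.0.16 in R 4.3.3 (filterByExpr with minimum count 10, TMM scaling, two-sided quasi-likelihood test), and p-values were adjusted by Benjamini-Hochberg over all 12650 genes that passed. The SE of a log2 fold change was taken from its F statistic. The fit was first run on simulated counts, with a small set of genes changed, evenly up and down, and the same spread for every gene. In the data 62.5% of genes were called, so that run does not test the scaling or the calls in this setting. Levels are TMM-scaled CPM (mean ± SD). CPM per kb used the length of 1 GENCODE 29 transcript per gene. Exon overlap and 50-base windows shared with other genes came from the same release, gene positions and promoters from RefSeq (GRCh38.p14), with 44 of 59 genes matched to a promoter. Summaries used Python 3.11.15, pandas 2.3.3, numpy 2.4.6 and matplotlib 3.10.9.

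The genes and lists were chosen with earlier results of these data known. Named genes were KNSTRN, every Wnt gene of the pattern and the 4 genes of each pathway list with the smallest p, beside CCND1 and MYC, chosen after their values were seen. A gene of the nuclear cofactor list is not reported here. Alternatives were other scaling factors, no or another low-count filter, DESeq2 1.42.0, limma-voom (limma 3.58.1), a replicate block, each library left out, and a threshold of 0.01. Counts without genes that share exon bases with another gene, and family shares with exon-union lengths, were alternatives chosen after seeing the data.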

Additional observations from a re-analysis of the deposited data

How the results depend on the processing

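Of the 37 Wnt genes, 14 of the 17 called higher and 7 of the 8 called lower kept their call and direction under all 14 alternative fits, and no direction of a called gene turned. The exceptions, WNT3, WNT5A, TCF7L2 and APC, are given with their values in the text. The count of Wnt genes called higher ran from 14 to 16 with 1 library left out and from 14 to 18 otherwise, and the count called lower was 8 with any library left out and 7 to 10 otherwise. Without the genes that share at least 1% of their exon bases with another gene of the table the counts were 16 and 7 (DVL1, which shares 0.81%, was kept). Counts over all genes ran from 3284 to 4339 higher and from 3221 to 4450 lower, and those over the pathway lists from 38 to 46 higher and from 35 to 49 lower. With exon-union lengths TCF7L1 took 35.8% and 56.2% of the TCF/LEF level with si-KNSTRN and si-NC, TCF7 5.66% and 2.99%, and LEF1 31.1% and 17.3%. Without si-NC library 2 the log2 fold change of FZD5 (1.14) passed that of ZNRF3 (1.01), and that of FZD7 passed that of CTNNB1 without si-KNSTRN library 3 (-0.87 and -0.82) or si-NC library 3 (-0.91 and -0.88).

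Libraries with the same number did not deviate together (r = -0.0628, 0.0530 and -0.0342), and si-KNSTRN library 1 correlated best with si-NC library 3 (0.0981), so the numbers were not taken as pairs. With the replicate block, 16 Wnt genes were called higher and 8 lower, beside 3831 and 3857 of all genes. The 22 Wnt genes that were not tested had no read or too few reads at this depth. For RNF43 the exon bases shared with other genes are a further limit.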
